A study of Mus musculus domesticus with 18 samples.

Results

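Hypoxia-inducible factor target genes were described in the livers of 18 wild-trapped male house mice (Mus musculus domesticus). The set named 34 genes by symbol, and the brightest probe set naming only that gene, judged by its mean over the 18 arrays, stood for each. Of these, 32 were measured among 18193 named genes, while Bnip3l and Loxl2 had no probe set that named a single gene and were not analysed here. The high altitude group held 9 mice from La Paz, Bolivia, at 3600 m, and the low altitude group held 9 mice from Lima, Peru, at 100 m. Either group was trapped at 3 places, lettered A to C separately for the cities, and every place gave 3 mice, each read on 1 Affymetrix array. The labels give the strain as C57BL/6J although the title, source and design text name wild mice, and the sources used here do not state age, feeding state or hour of killing. Altitude coincided with city and mouse population, so these cannot be told apart. Nothing in the labels says how related the mice of a location were, and p-values measure the spread between these mice.

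Hypoxia-inducible factors are pairs of an oxygen-regulated alpha subunit, HIF1A or EPAS1, and the constant partner ARNT. With oxygen present, prolyl hydroxylases mark the alpha subunit for destruction through the VHL protein. When oxygen is short the subunit is spared and the factor binds ACGTG or GCGTG motifs near genes for vessel growth, glucose uptake, glycolysis, mitochondrial turnover, collagen processing and pH control. In liver, oxygen falls along the sinusoid from the portal to the central side. Several of these genes also answer to fasting, glucocorticoids or the clock in liver, among them Igfbp1, Angptl4, Ddit4, Plin2 and Bhlhe40.

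All values are log2 RMA levels, which compare mice within a probe set and not genes with each other. Of the 32 members, 21 had a mean level above the median gene level of 6.31, and the other 11 lay closer to the floor, where RMA compresses differences. The 6 hepatocyte markers examined (Alb, Apoa1, Ttr, Cps1, Cyp2e1 and Hnf4a) were brighter than at least 98.7% of genes. The median gene of an array was at 6.31 ± 0.01 in high and 6.29 ± 0.02 in low altitude mice (SD, n = 9 each). Pairs of arrays had a mean correlation of 0.986 where both mice shared a place, of 0.984 where they shared the altitude alone and of 0.982 where they did not. In whole liver, fewer cells of a type and less RNA per cell cannot be told apart.

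The first comparison asked whether target genes differed between the 2 altitudes. None of the 32 members passed limma's test with trapping location as a random block at an adjusted p under 0.05, beside 0.363% of all genes (66 of 18193). At an unadjusted p under 0.05 there was 1 member, Pdk1, beside 11.5% of all genes. The correlation between mice of a location that the block used, 1 value for all genes, was estimated at 0.0059. Without the block 66 genes were called as well. The fit thus treated the mice nearly as independent, and for members that differed between locations it did not account for that dependence. The members were split evenly, 16 with a positive and 16 with a negative difference of high minus low, and their median difference was 0.005, beside 0.004 over all genes. The median absolute difference was 0.094 for the members and 0.072 for all genes. The 95% interval of the difference lay within 2-fold in either direction (within 1 on the log2 scale) for 30 of the 32 members, the exceptions being Ddit4 and Pfkfb3, beside 97.2% of all genes. It lay within 0.5 for 24 members, beside 86.1% of all genes. The 9 high and 9 low altitude values did not overlap for 0 members and for 0.115% of all genes. The 3 location means of an altitude lay apart from the 3 of the other for Vegfa, Pdk1 and Ero1a, beside 14.6% of all genes, so this count is not above the background.

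**Figure D1:**
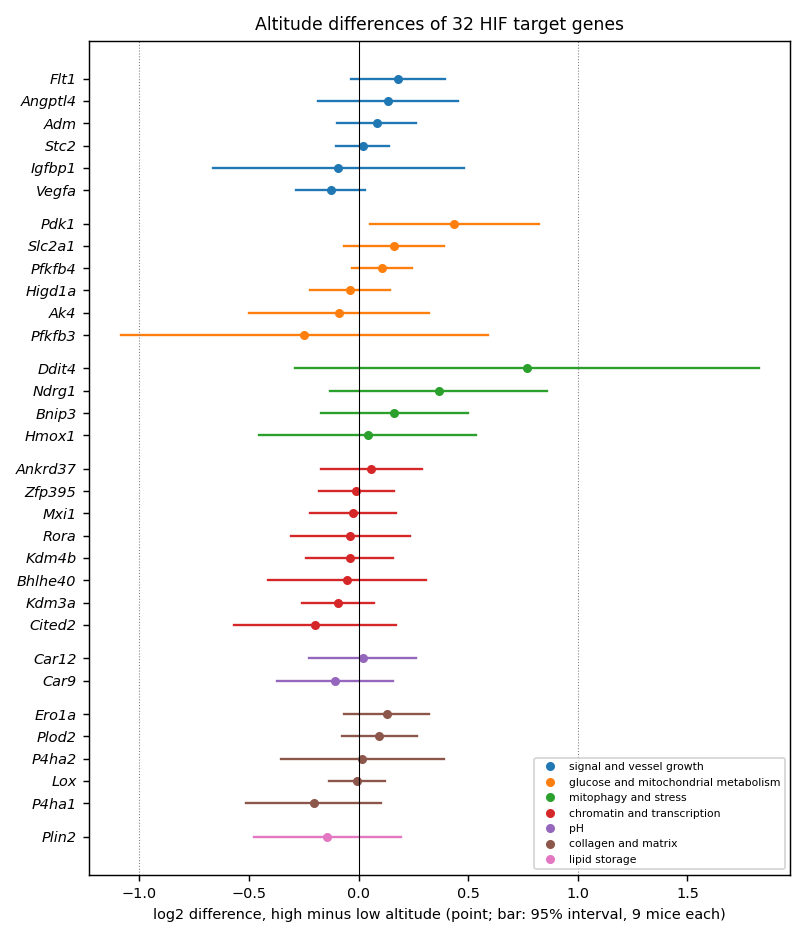
Differences between altitudes of the 32 measured target genes, grouped by role. Points are log2 differences, high minus low altitude, and bars are 95% intervals from limma (9 mice each); the dotted lines mark a 2-fold difference. The Pdk1 interval alone excludes 0, and the Ddit4 and Pfkfb3 intervals alone reach past 2-fold.

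Among genes of secreted signals and vessel growth, differences ran from -0.13 to 0.18, and 0 of 6 passed. Vegfa, the main growth factor for endothelial cells, had a lowest, median and highest level of 7.64, 7.93 and 8.14 at high altitude, against 7.88, 8.09 and 8.23 at low altitude. The ranges overlapped, although 7 of 9 high altitude values were under the mean of low altitude. The log2 difference was -0.13 ± 0.08 (SE, 95% interval -0.29 to 0.03, adjusted p = 0.555). A second Vegfa probe set of nearly the same level gave -0.18 ± 0.12 (SE). Flt1, a receptor for VEGFA on endothelial cells, lay at 5.81, 5.98 and 6.71 at high altitude, against 5.68, 5.87 and 6.08 at low altitude. Its difference of 0.18 ± 0.10 (SE, adjusted p = 0.544) came with a level below the median gene. Dimmer Flt1 probe sets gave 0.16 ± 0.19, 0.00 ± 0.11 and 0.02 ± 0.05 (SE). Igfbp1, a secreted binder of insulin-like growth factors that liver makes in fasting, lay at 11.41, 13.08 and 13.46 at high altitude, against 11.83, 12.94 and 13.57 at low altitude. Its high altitude range nearly covered the low altitude range, and the difference was -0.09 ± 0.27 (SE, adjusted p = 0.949). Angptl4, an inhibitor of lipoprotein lipase, differed by 0.13 ± 0.15, the vessel-relaxing peptide gene Adm by 0.08 ± 0.09 and the stanniocalcin gene Stc2 by 0.02 ± 0.06 (SE).

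Genes of glucose and mitochondrial metabolism held the member with the smallest p. Pdk1, a kinase that shuts off pyruvate entry into the tricarboxylic acid cycle, lay at 7.59, 8.60 and 8.91 at high altitude, against 7.47, 7.86 and 8.53 at low altitude. The ranges overlapped widely, while 7 of 9 high altitude mice were above the low altitude mean. Its log2 difference was 0.44 ± 0.19 (SE, 95% interval 0.05 to 0.82, 1.35-fold), with an unadjusted p of 0.029 and an adjusted p of 0.353. Among the other Pdk1 probe sets, those at a like level gave 0.35 ± 0.22 and 0.46 ± 0.24 (SE), and a dim one gave -0.01 ± 0.07 (SE). High location A was at 8.06, close to the 8.03, 7.93 and 7.91 of low locations A, B and C, while high locations B and C were at 8.53 and 8.58. Slc2a1, the glucose transporter GLUT1, lay at 7.95, 8.36 and 8.80 at high altitude, against 7.996, 8.13 and 8.42 at low altitude. Its difference of 0.16 ± 0.11 (SE, adjusted p = 0.627) was 0.18 ± 0.16 and -0.00 ± 0.11 in its other probe sets. Pfkfb4, an enzyme that makes a stimulator of glycolysis, differed by 0.11 ± 0.07, the mitochondrial adenylate kinase gene Ak4 by -0.09 ± 0.20 and the respiratory chain gene Higd1a by -0.04 ± 0.09 (SE). Pfkfb3, a relative of Pfkfb4, lay at 5.01, 5.56 and 7.94 at high altitude, against 5.23, 6.10 and 7.72 at low altitude. The high altitude range enclosed that of low altitude, and the difference was -0.25 ± 0.40 (SE, adjusted p = 0.892). Its other probe set, of nearly the same level, gave 0.08 ± 0.06 (SE).

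The 4 measured genes of mitochondrial turnover and stress all had differences above 0 (median 0.26), beside 51.6% of all genes, and 0 of 4 passed. Ddit4, a stress-induced inhibitor of mTORC1, lay at 6.99, 8.61 and 10.48 at high altitude, against 7.02, 8.07 and 10.28 at low altitude. The groups spanned nearly the same range. Its difference was the largest of the members at 0.77 ± 0.51 (SE, 95% interval -0.29 to 1.82, adjusted p = 0.614). Ndrg1, a stress- and differentiation-related gene, lay at 6.96, 7.65 and 9.08 at high altitude, against 7.02, 7.49 and 8.34 at low altitude. The highest 2 of its 18 values came from high location A, at 8.41 and 9.08. The difference was 0.36 ± 0.24 (SE, adjusted p = 0.606), and its 4 other probe sets gave 0.15 to 0.34 and correlated with it at r from 0.86 to 0.95 over the 18 mice. Bnip3, which marks mitochondria for removal, lay at 11.52, 12.34 and 12.59 at high altitude, against 11.42, 11.86 and 12.51 at low altitude. Its difference was 0.16 ± 0.16 (SE, adjusted p = 0.783). Hmox1, the inducible haem oxygenase, lay at 6.94, 7.64 and 8.82 at high altitude, against 6.95, 7.85 and 8.29 at low altitude. Its difference of 0.04 ± 0.24 (SE, adjusted p = 0.975) had a 95% interval from -0.45 to 0.54, so changes within that interval were not excluded.

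**Figure D2:**
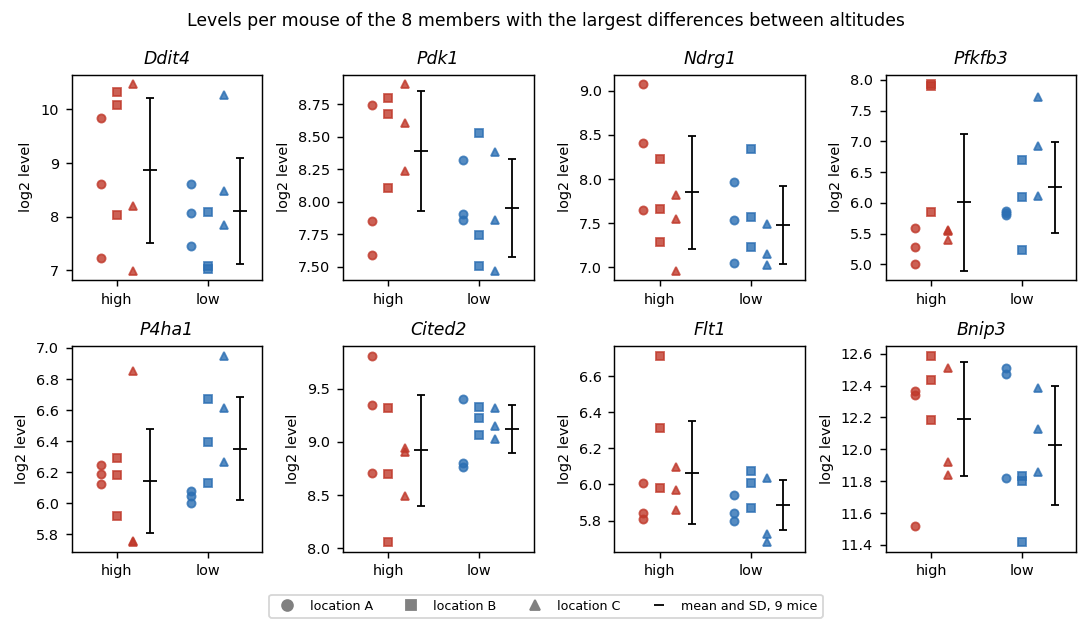
Log2 levels per mouse (y axis) at high and low altitude (x axis) for the 8 target genes with the largest differences. Marker shape gives the location, and bars give the mean and SD of 9 mice. In every panel the altitudes overlap, and Ddit4 spans 6.99 to 10.48 at high altitude and 7.02 to 10.28 at low altitude.

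Genes acting on chromatin and transcription differed by -0.20 to 0.06, with 7 of 8 differences negative and 0 of 8 past the test. Over all genes 8803 of 18193 differences were negative. Cited2, which competes with the factors for their coactivators, lay at 8.06, 8.90 and 9.81 at high altitude, against 8.77, 9.15 and 9.41 at low altitude. The high altitude mice enclosed the low altitude range on both sides, with SDs of 0.52 and 0.23 (n = 9 each). Its difference was -0.20 ± 0.18 (SE, adjusted p = 0.745), and its dimmer probe set gave -0.37 ± 0.15 (SE, unadjusted p = 0.0249, adjusted p = 0.372 over all probe sets). Ankrd37, a small ankyrin repeat gene whose induction by the factors is well known, lay at 3.94, 4.51 and 5.14 at high altitude, against 4.27, 4.43 and 4.71 at low altitude. These levels are near the array floor, and the difference was 0.06 ± 0.11 (SE, adjusted p = 0.917). The histone demethylase genes Kdm3a and Kdm4b differed by -0.09 ± 0.08 and -0.04 ± 0.10 (SE). The clock repressor gene Bhlhe40 differed by -0.05 ± 0.17 and the clock nuclear receptor gene Rora by -0.04 ± 0.13 (SE). Other Rora probe sets did not share a sign and ran from -0.26 ± 0.14 to 0.64 ± 0.32 (SE). The MYC antagonist gene Mxi1 differed by -0.03 ± 0.09 and the zinc finger gene Zfp395 by -0.01 ± 0.08 (SE).

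Genes of collagen processing and pH control also stayed below the threshold. P4ha1, a collagen prolyl hydroxylase subunit, lay at 5.75, 6.18 and 6.85 at high altitude, against 6.00, 6.26 and 6.95 at low altitude. Its difference was -0.21 ± 0.15 (SE, adjusted p = 0.655), with 1 of 9 high altitude mice above the low altitude mean. Its relative P4ha2 differed by 0.02 ± 0.18, the disulphide-forming oxidase gene Ero1a by 0.13 ± 0.09, the lysyl hydroxylase gene Plod2 by 0.09 ± 0.08 and the lysyl oxidase gene Lox by -0.01 ± 0.06 (SE). Dimmer probe sets gave -0.03 ± 0.16 for P4ha1, and -0.09 ± 0.14 and 0.04 ± 0.14 for Ero1a (SE). The carbonic anhydrase genes Car9 and Car12 differed by -0.11 ± 0.13 and 0.02 ± 0.12 (SE). Plin2, the coat protein of lipid droplets, lay at 11.25, 11.87 and 12.48 at high altitude, against 11.59, 12.12 and 12.42 at low altitude. Its difference was -0.14 ± 0.16 (SE, adjusted p = 0.824).

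The choice of probe set did not yield a call. The 32 members had 74 single-gene probe sets, and 0 passed limma's test when all 34945 single-gene probe sets were tested, beside 0.338% of them. At an unadjusted p under 0.05 there were 4 of the 74, beside 10.6% of all. Besides Pdk1 and Cited2 these belonged to Higd1a, at 0.41 ± 0.14 (SE, unadjusted p = 0.00842, adjusted p = 0.248), and to Lox, at -0.50 ± 0.20 (SE) in a probe set brighter than 7.07% of genes. The Higd1a probe set and the brighter one used above, at -0.04, had a correlation of -0.03 over the 18 mice. Of the 42 probe sets not used as the gene's main one, 32 had the sign of the main one. For 21 of them above the median gene level, the median correlation with the main one was 0.60 over the 18 mice.

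Other genes of the pathway were read for context. Of 10 genes for the factors and their oxygen sensors, 1 passed, Egln3, a prolyl hydroxylase that is itself a target of the factors. Egln3 lay between 5.92 and 7.33 at high altitude, against 7.01 and 8.005 at low altitude, a log2 difference of -1.14 ± 0.18 (SE, adjusted p = 0.00545). With 1 mean per location, 3 against 3, this call was lost, since 0 of 18193 genes passed limma's test and 1617 had an unadjusted p under 0.05. Hif1a and Epas1 differed by 0.03 ± 0.13 and -0.07 ± 0.13 (SE). Of 35 measured other targets, mostly glycolytic, vascular and iron genes, 0 passed limma's test. Unadjusted p was under 0.05 for 4 of them, 11.4% beside 11.5% of all genes. Their differences were positive for 17 and negative for 18, with a median of -0.02. Of 18 measured genes of fasting and glucocorticoid action, 0 passed and 3, 16.7%, had an unadjusted p under 0.05. Of their differences 14 were positive, 77.8% beside 51.6% over all genes, with a median of 0.11. No marker of another liver cell type passed between altitudes either. The differences of all 7 Kupffer cell markers were positive (median 0.27), with a smallest adjusted p of 0.146, and of the 8 endothelial markers 4 were positive, with a smallest adjusted p of 0.0704. Of the 6 measured T, NK and B cell markers 5 had positive differences (median 0.20), and 3 of them, 50% beside 11.5% of all genes, had an unadjusted p under 0.05, with a smallest adjusted p of 0.147. The part of these cell types in the members' values was not tested.

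Several members varied widely between mice trapped in the same place. The SD between mice of a location exceeded the median of all genes, 0.18, for 27 of the 32 members, whose median was 0.25. Among genes above the median level, where the median was 0.21, 16 of 21 members exceeded it, with a median of 0.337. Ddit4 had a within-location SD of 1.21, higher than in 99.7% of genes, and spanned 11.2-fold over the 18 mice. High location C held both its highest and its lowest value, 10.48 in mouse 1 and 6.99 in mouse 2. Pfkfb3, with a within-location SD of 0.67, spanned 7.59-fold, Igfbp1 4.48-fold, Ndrg1 4.34-fold and Hmox1 3.68-fold. The tightest member was Stc2, with a within-location SD of 0.08 and a 1.25-fold span, followed by Pfkfb4 with 0.11. The fasting and glucocorticoid genes had a median within-location SD of 0.50, and all 18 exceeded the median gene; their part in the spread of the members was not tested.

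**Figure D3:**
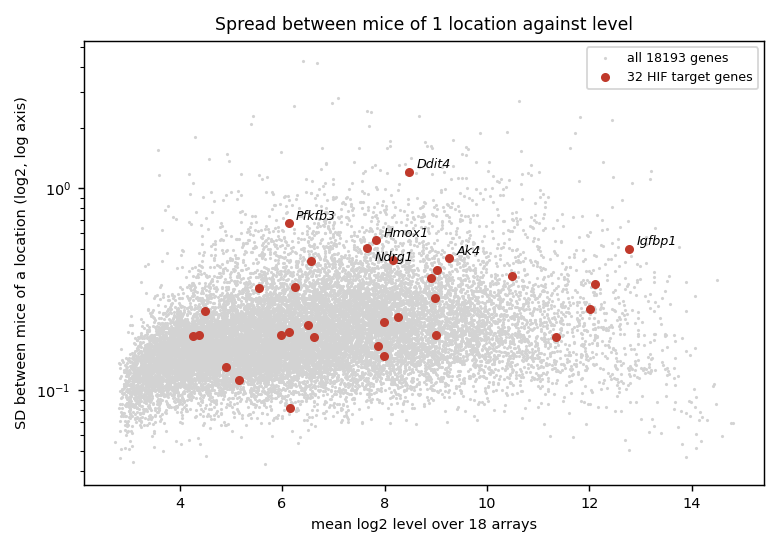
Spread between mice of the same location (y axis, SD of log2 levels, log axis) against mean log2 level over 18 arrays (x axis). Grey points are all 18193 genes and red points the 32 target genes, of which the 6 with the largest spread are named. Ddit4 stands highest at an SD of 1.21, and the red points lie mostly in the upper part of the grey cloud.

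The second comparison asked whether target genes differed between trapping places of the same altitude. With limma's moderated F test over the 3 high locations, 0 of 32 members passed, beside 0.302% of all genes, and 4 had an unadjusted p under 0.05, 12.5% of the members beside 8.91% of all genes. These were Plin2, Pfkfb3, Igfbp1 and Flt1. Plin2 lay at 11.85, 12.16 and 11.77 in high location A, at 11.87, 11.36 and 11.25 in B and at 12.43, 12.48 and 12.28 in C. All 3 mice of C stood above all mice of A and B (unadjusted p = 0.00104, adjusted p = 0.118). Pfkfb3 lay at 5.59, 5.01 and 5.28 in high location A, at 7.90, 5.85 and 7.94 in B and at 5.56, 5.55 and 5.40 in C. Mice 1 and 3 of B were far above the rest, and mouse 2 of B, at 5.85, was close to the mice of A and C (unadjusted p = 0.00162, adjusted p = 0.139). Without high B mouse 2 the adjusted p of Pfkfb3 was 0.00967. With arrays weighted by quality those of Pfkfb3 and Plin2 were 0.0135 and 0.0206, in a fit that called 281 genes against 55 in the main fit. Without high B mouse 3 the adjusted p of Plin2 was 0.410. Pfkfb3 passed under 2 of 16 alternatives and Plin2 under 1 of 17. A second Pfkfb3 probe set of nearly the same level correlated with the one used at r = 0.39 over the 18 mice. Igfbp1 lay at 11.41, 13.08 and 11.76 in high location A, at 13.19, 12.89 and 13.46 in B and at 13.14, 12.49 and 13.20 in C. In location A, mice 1 and 4 had the lowest values of all 18 mice, and mouse 2 lay with the other locations (unadjusted p = 0.0188, adjusted p = 0.414). Flt1 was highest in location B, at 6.71, 5.98 and 6.31 (unadjusted p = 0.0222, adjusted p = 0.437). Of the 8 endothelial markers 1, and of the 7 Kupffer cell markers 5, had an unadjusted p under 0.05 between the high locations. Of the 6 measured T, NK and B cell markers 4 did, and Nkg7, a cytotoxic lymphocyte gene named after its values were seen, passed (limma adjusted p = 0.037). The part of these cell types in the values of the members was not tested. The Actb 3 prime minus 5 prime difference is a measure of RNA integrity. With it as a covariate, the adjusted p of Pfkfb3, Igfbp1 and Flt1 were 0.668, 0.881 and 0.966, and Plin2 did not pass either. It was larger in all 3 mice of high location B, at 2.02, 1.46 and 1.63, than in any mouse of A or C, at 0.84 to 1.38. The covariate therefore also takes out part of the difference between locations, and calls over all genes fell from 55 to 18.

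Over the 3 low locations 0 of 32 members passed the same test, beside 0.0715% of all genes, and 2 had an unadjusted p under 0.05, 6.25% of the members beside 6.68% of all genes. Car12 lay at 3.87, 4.13 and 4.06 in low location A, at 4.64, 4.66 and 4.49 in B and at 4.77, 4.25 and 4.40 in C. Location A was below the others, at levels near the array floor (unadjusted p = 0.00259, adjusted p = 0.386). Igfbp1 lay at 12.71, 12.20 and 11.83 in low location A, at 13.18, 13.42 and 12.61 in B and at 12.94, 13.57 and 13.00 in C (unadjusted p = 0.0401, adjusted p = 0.703). At both altitudes the location named A had the lowest Igfbp1 mean, at 12.08 and 12.25, but the letters name different places and pair nothing. Bnip3 lay at 11.82, 12.48 and 12.51 in low location A, at 11.42, 11.80 and 11.83 in B and at 12.13, 11.86 and 12.38 in C. Location B had the lowest mean, and location A overlapped both others (unadjusted p = 0.0782, adjusted p = 0.773). Between the low locations 5 of the 7 Kupffer cell markers, 2 of the 5 measured neutrophil markers and 0 of the 8 endothelial markers had an unadjusted p under 0.05, and their part in these values was not tested.

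**Figure D4:**
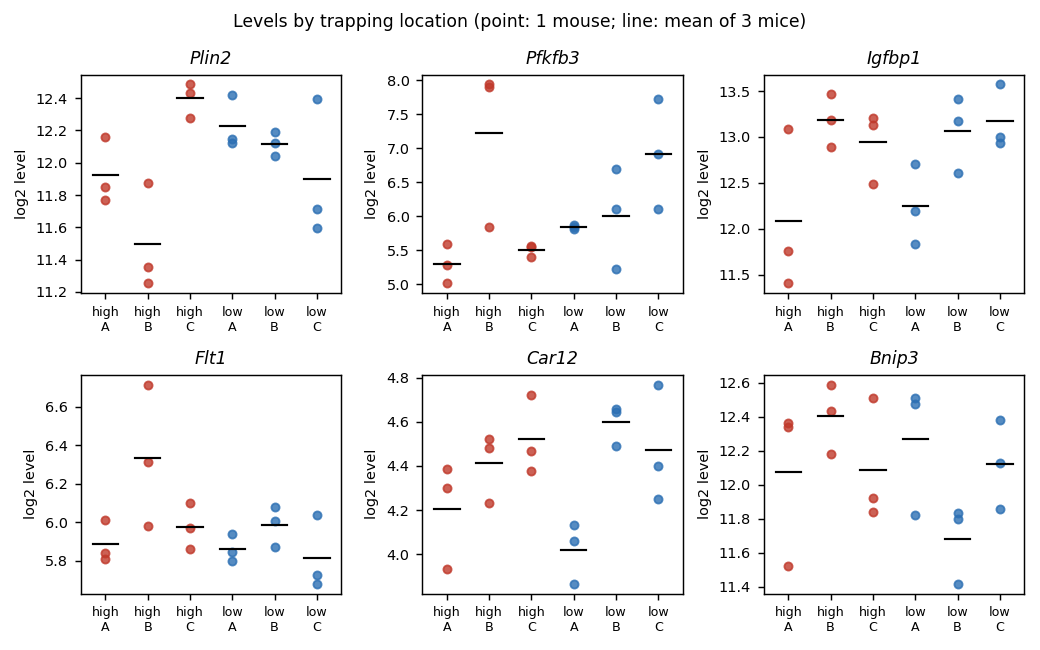
Log2 levels per mouse (y axis) in the 3 high and 3 low altitude locations (x axis) for Plin2, Pfkfb3, Igfbp1, Flt1, Car12 and Bnip3. Points are mice and lines are means of 3 mice. Plin2 is lowest in high location B and highest in high location C, and Pfkfb3 is near 7.9 in 2 mice of high location B.

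The third question was whether the members varied together from mouse to mouse. Levels were centred on their location mean, and Pearson's r was computed for all 496 pairs of members over the 18 mice, with an exact two-sided permutation test over all 46656 orders of mice within locations. Strong correlations were about as frequent among target genes as among genes in general or rarer. An absolute r of at least 0.5 was seen in 63 of 496 pairs, 12.7%, beside 15.1% of all pairs among the 18193 genes. At 0.6 the count was 31 pairs, 6.25% beside 7.26%, at 0.7 it was 7 pairs, 1.41% beside 2.65%, and at 0.8 it was 2 pairs, 0.403% beside 0.575%. The median absolute r was 0.227 for members and 0.249 for all pairs, and 241 member pairs were positive and 255 negative. Unadjusted p was under 0.05 for 40 pairs, and 3 passed Benjamini-Hochberg adjustment over the 496. The permutation test was not run for pairs of all genes, so these counts have no background. Leaving out any single mouse gave 0 to 2 such pairs, and 0 without high A mouse 1, 2 or 4. Fewer mice leave fewer orders to permute, which raises the smallest possible p, so a lost call need not mean a weaker correlation. For the 3 pairs that passed, r over these omissions ran from 0.63 to 0.75 (Car9 and Car12). It ran from -0.90 to -0.80 for Car9 and Kdm4b, and from -0.95 to -0.83 for Kdm4b and Plod2.

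Those pairs joined Car9, Car12, Kdm4b and Plod2, of which Car9, Car12 and Plod2 had levels brighter than only 37.3%, 17.5% and 15.6% of genes. Car9 and Car12 moved together (r = 0.68, exact permutation p = 4.29e-05, adjusted p = 0.0213; Spearman's rho = 0.82, exact permutation p = 2.14e-05, the smallest possible). Without the 2 mice farthest from the Car9 median r was 0.69, and within high and low altitude, still centred on locations, it was 0.77 and 0.55. Car9 and Kdm4b moved oppositely (r = -0.85, exact permutation p = 0.000193, adjusted p = 0.0319; rho = -0.89, exact permutation p = 0.000214), with r of -0.87 without the 2 farthest mice. Within high and low altitude r was -0.86 for each. Kdm4b and Plod2 also moved oppositely (r = -0.87, exact permutation p = 0.000193, adjusted p = 0.0319; rho = -0.88, exact permutation p = 0.000193), with -0.91 without the 2 farthest mice and -0.76 and -0.98 within high and low altitude. The second Plod2 probe set had a correlation of 0.09 with the first, and those of the other 2 Car12 probe sets with the one used were 0.20 and 0.20. With the means of each gene's probe sets, r was 0.54 for Car9 and Car12 (unadjusted exact permutation p = 0.0131) and -0.51 for Kdm4b and Plod2 (unadjusted exact permutation p = 0.106), and neither passed over the 496 pairs.

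A property of the arrays moved with these pairs. The SD of all gene levels on an array, a measure of how far RMA spreads bright from dim genes, ran from 2.19 to 2.30 at each altitude. Centred on locations, it had correlations over the 18 mice of -0.93 with Car9, -0.76 with Car12, 0.74 with Kdm4b and -0.60 with Plod2, and an absolute correlation of at least 0.7 with 12.5% of the members and 16.3% of all genes. After it was taken out of both genes, an alternative chosen after seeing the data, r was -0.12 for Car9 and Car12, -0.63 for Car9 and Kdm4b and -0.79 for Kdm4b and Plod2, with no test. The call of these pairs was lost when levels were not centred on locations: over the 18 uncentred mice r was 0.40, -0.68 and -0.54 (100000 permutations, unadjusted p = 0.0946, 0.00129 and 0.0216), and 0 of 496 pairs passed the adjustment.

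**Figure D5:**
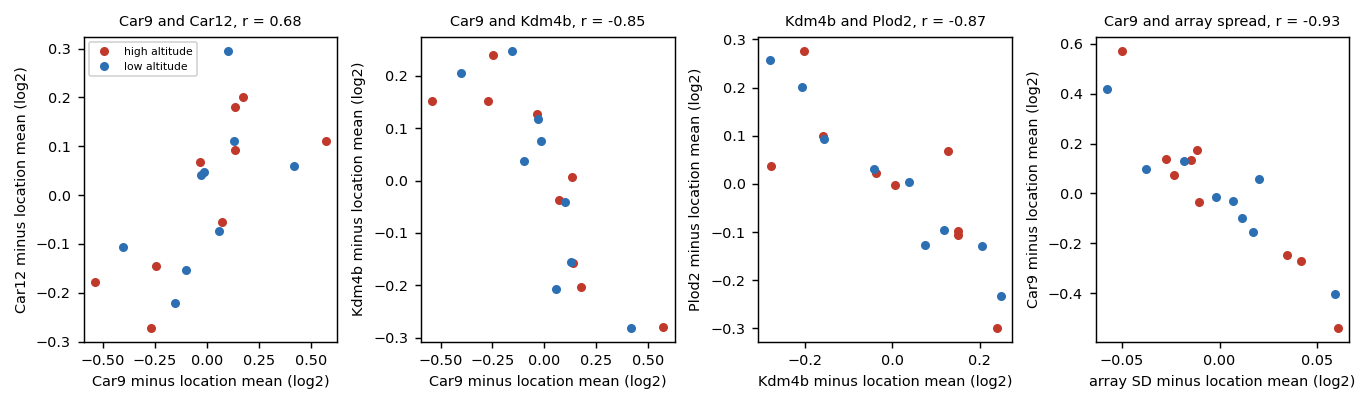
The 3 pairs of target genes past the test, and Car9 against the spread of its array. Each point is 1 mouse, with values on both axes as log2 units minus the mean of its location, red for high and blue for low altitude. Car9 and Car12 have r = 0.68, Car9 and Kdm4b -0.85, Kdm4b and Plod2 -0.87, and Car9 and the array SD -0.93.

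Among brighter members, 2 pairs chosen after their values were seen did not pass. Ddit4 and Cited2 had r = 0.67 (exact permutation p = 0.0108, adjusted p = 0.428; rho = 0.72, exact permutation p = 0.00776; r = 0.74 without the 2 farthest mice). Mxi1 and Ak4 had r = 0.73 (exact permutation p = 0.00879, adjusted p = 0.428; rho = 0.72, exact permutation p = 0.0111; r = 0.64 without the 2 farthest mice). Against Egln3, centred on locations, r of the 32 members ran from -0.58 for Ddit4 to 0.66 for Ankrd37, with a median of -0.03, and 0 passed the exact permutation test after adjustment over the 32 while 3 had an unadjusted p under 0.05. Against Hif1a and against Epas1 0 members passed, with 2 and 1 at an unadjusted exact permutation p under 0.05. The test was not run for all genes, so these counts, like those against Egln3 and the Actb difference, have no background. The member with the smallest p against Epas1 was Pfkfb3 (r = 0.76, exact permutation p = 0.00559, adjusted p = 0.179; rho = 0.64, exact permutation p = 0.0284; r = 0.55 without the 2 farthest mice). Against the Actb 3 prime minus 5 prime difference, also centred on locations, 0 members passed and 1, Adm, had an unadjusted p under 0.05 (r = 0.54, exact permutation p = 0.0328, adjusted p = 0.872; rho = 0.54, exact permutation p = 0.0443). Centring removes differences between places, which this test cannot judge. The Actb difference averaged 1.40 (SD 0.32) in high altitude mice and 1.21 (SD 0.17) in low altitude mice. Uncentred, r in high altitude mice ran from -0.32 for Cited2 to 0.74 for Pfkfb3, 0.76 for Bnip3 and 0.89 for Flt1, with no test. In low altitude mice the last 3 had r of -0.08, 0.10 and -0.42.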

How the data were processed

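Liver RNA of 18 mice was hybridised to Affymetrix arrays, per the labels' protocols. The authors deposited log2 values of 45101 probe sets made with RMA in the R package affy, per the submitters' processing notes; the sources used here give no versions. RMA compresses differences of dim probe sets. No detection call or scan date was used here, and no batch by date was examined. Gene names came from GEO's platform annotation, and all 34 member symbols are in the RefSeq gene table. Members, lists and tests were chosen with earlier results of these data known. Every member is named; full values are given for members called, the 8 largest altitude differences, the 3 smallest location p per altitude and a panel (Vegfa, Slc2a1, Pdk1, Bnip3, Ankrd37, Ndrg1, Hmox1, Plin2 and Igfbp1). No promoter or probe sequence was used here.

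Altitude was fitted in limma 3.58.1 (R 4.3.3) with location as a random block, eBayes with trend and Benjamini-Hochberg adjustment over 18193 genes; locations were tested with moderated F tests in a fit of 6 location means. Intervals are 95%. Procedures were tested on simulated data. The simulated altitude data held no location effect, so they could not check how the random block handles it. Python 3.11.15, pandas 2.3.3, scipy 1.17.1 and matplotlib 3.10.9 were used for the rest.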

Additional observations from a re-analysis of the deposited data

Results flagged for a closer look

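In 4 of 64 groups of 9 mice, 1 member in 1 altitude each, a single mouse stood far from the others, its gap to the nearest other mouse taking more of the group's range than Dixon's 95% critical value for 9 values; chance gives about 1 in 20. Ddit4 was 10.28 in low location C mouse 2, against 8.61 in the next mouse. Adm was lowest in the same mouse at 5.78, against 6.04 in the next. Car9 was 6.14 in low location B mouse 2, against 5.70 in the next. P4ha1 was 6.85 in high location C mouse 2, against 6.29 in the next.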

How the results depend on the processing

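Between altitudes 0 members passed under every alternative run, with a smallest adjusted p of 0.172 without high location B. The median member difference, 0.005, ran from -0.03 to 0.07. Pdk1 stayed positive, from 0.31 to 0.60, with adjusted p from 0.177 to 0.636. Of 1109 single-member differences 91 changed sign, in 17 members, none of them called. Over all genes the 66 altitude calls became 0 with 1 mean per location, 121 with arrays centred on brighter genes, 135 with array quality weights, 118 probe sets with every probe set tested, 19 (without low B mouse 3) to 84 without single mice, and 30 to 100 without single locations; the 55 calls between high locations ran from 18 (Actb covariate) to 281 (quality weights), and the 13 between low locations from 4 to 50. With the replicate block of mouse number, 0 members passed in each comparison, with 28 genes called between altitudes; the numbers share only a label, since same-numbered mice of different locations had a mean correlation of deviations of -0.014 (from -0.36 to 0.41). Between high locations, 2 members passed with array quality weights, and leaving out single mice gave 0 to 1 members, the 1 being Pfkfb3 without high B mouse 2. Of the 3 correlated pairs, 0 passed centred on altitude means, 0 uncentred, and 0 among members above the median level, where Car9, Car12 and Plod2 are not tested. With the means of each gene's probe sets 2 pairs passed, Car9 with Kdm4b and a pair that was not among the 3. Leaving out single mice gave 0 to 2 pairs: 0 without high A mouse 1, 2 or 4, and 1 without high B1, C1, C2 or C3 or low A2, B1, B2, B3 or C2. With a mouse left out the smallest possible p was larger, and r of the 3 pairs kept its sign throughout. Car9 and Car12 turned to -0.12 after the array SD was taken out. For the other changes the cause was not tested. The floor of the arrays limits the 11 dimmer members.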

Other observations

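Among the other targets read for context, Vldlr, the receptor for very low density lipoprotein, had the largest difference. Chosen after its values were seen, it had a mean of 6.45 ± 1.23 in high and 4.93 ± 0.71 in low altitude mice (SD, n = 9 each). The log2 difference was 1.52 ± 0.43 (SE, limma unadjusted p = 0.00194, adjusted p = 0.128). Vldlr was brighter than only 39.6% of genes, and its within-location SD was 0.96. Among the fasting genes Pdk4, a relative of Pdk1 that fasting induces, was also chosen after its values were seen. It had a mean of 6.39 ± 0.58 in high and 5.72 ± 0.52 in low altitude mice (SD, n = 9 each). Its log2 difference was 0.68 ± 0.24 (SE, limma adjusted p = 0.233), at a level brighter than only 46.0% of genes. Lpin1 and Ppargc1a of the same list differed by 0.75 ± 0.33 and 0.71 ± 0.35 (SE, limma adjusted p = 0.386 and 0.452).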
